A study of Mus musculus with 24 samples.

Results

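H3K27Ac was described in 4 mouse organs over 9 genes of glucose uptake and of the first and last steps of glycolysis. H3K27Ac is histone H3 acetylated at lysine 27, a mark of active promoters and enhancers. The 9 genes were taken by symbol from the 27179 genes of the deposited table. They are the facilitative glucose transporters Slc2a1, Slc2a2, Slc2a3 and Slc2a4, the hexokinases Hk1, Hk2 and Hk3, and the pyruvate kinases Pklr and Pkm, and all 9 were measured and tested.

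Facilitative transporters let glucose move down its gradient into the cell, hexokinases trap it there as glucose 6-phosphate, and pyruvate kinase makes pyruvate and ATP at the end of the pathway. Each step is served by isoforms from separate genes with their own kinetics and regulation. Liver is known for a high-capacity, reversible transporter and for a pyruvate kinase under dietary control, and heart and other insulin-sensitive muscle for a transporter that insulin brings to the cell surface. Brain depends on blood glucose and is known for a transporter of high affinity in its neurons.

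The study measured H3K27Ac by chromatin immunoprecipitation and sequencing in brain, heart, kidney and liver. Each organ came as snap-frozen tissue (Frozen) or as a paraffin block after fixation with 10% formalin (FFPE). Frozen tissue was crosslinked in 1% formaldehyde for 30 min, while FFPE tissue was deparaffinized and its chromatin extracted at 95 °C for 20 min. The table holds 8 columns, 1 per organ and preservation, each called a library here. The labels state no strain, age, sex or animal for a column, so preservation and a difference between animals cannot be told apart.

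Values are log2 CPM, the reads over a gene relative to the scaled size of its library on a log2 scale, where 1 unit is a doubling. Libraries held 4404789 to 6164562 counts in all, of which each of the 9 genes had 55 to 924. Neuron, cardiomyocyte, proximal tubule and hepatocyte marker lists were each highest, in summed CPM, in both libraries of their own organ, and no marker was at 0 in any library. The neuron list summed to 452 to 665 in brain against 127 to 186 elsewhere, the cardiomyocyte list to 1003 to 1012 in heart against 136 to 330, the proximal tubule list to 493 to 641 in kidney against 195 to 281, and the hepatocyte list to 1025 to 1405 in liver against 87.2 to 140. The podocyte list was not highest in kidney, at 140 to 175, nor the skeletal muscle list in heart. In a whole organ, fewer cells of a type and less H3K27Ac per cell cannot be told apart.

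The promoters of the 2 genes that liver marked most and of their widely used counterparts are shown because they differ in CpG content. RefSeq promoter windows of build GRCm38.p6, 250 bases before to 50 bases after an annotated start, matched 7 of the 9 genes with 10 windows; Slc2a3 and Slc2a4 were not matched. All those printed lie on the plus strand and read 5′ to 3′, with CpG dinucleotides in capitals. The Slc2a2 window (chr3:28697653-28697952), the first Pklr window (chr3:89135892-89136191), the second Pklr window (chr3:89136373-89136672), the Slc2a1 window (chr4:119108495-119108794) and the first Pkm window (chr9:59656326-59656625) follow.
Slc2a2: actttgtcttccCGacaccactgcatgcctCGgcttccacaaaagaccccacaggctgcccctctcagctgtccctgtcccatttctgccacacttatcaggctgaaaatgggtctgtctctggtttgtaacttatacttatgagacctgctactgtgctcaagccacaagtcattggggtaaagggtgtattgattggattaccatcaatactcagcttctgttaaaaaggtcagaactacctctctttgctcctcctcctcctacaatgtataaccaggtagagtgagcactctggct
Pklr, first start: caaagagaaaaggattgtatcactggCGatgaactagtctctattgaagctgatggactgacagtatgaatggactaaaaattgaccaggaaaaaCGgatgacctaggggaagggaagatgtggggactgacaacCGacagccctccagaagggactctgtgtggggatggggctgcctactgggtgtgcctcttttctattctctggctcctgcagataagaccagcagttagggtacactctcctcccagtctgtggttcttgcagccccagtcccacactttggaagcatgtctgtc
Pklr, second start: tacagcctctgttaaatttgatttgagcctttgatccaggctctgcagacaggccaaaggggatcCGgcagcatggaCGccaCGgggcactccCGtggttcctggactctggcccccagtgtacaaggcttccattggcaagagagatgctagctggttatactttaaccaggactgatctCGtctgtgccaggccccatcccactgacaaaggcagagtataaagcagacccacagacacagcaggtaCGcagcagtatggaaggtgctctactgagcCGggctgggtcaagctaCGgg
Slc2a1: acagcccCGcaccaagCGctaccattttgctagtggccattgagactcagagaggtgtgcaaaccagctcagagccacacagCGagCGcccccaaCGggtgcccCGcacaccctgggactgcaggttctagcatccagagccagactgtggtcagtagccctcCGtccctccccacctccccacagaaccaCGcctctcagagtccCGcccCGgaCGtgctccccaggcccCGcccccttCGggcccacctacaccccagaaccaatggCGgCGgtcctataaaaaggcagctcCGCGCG
Pkm, first start: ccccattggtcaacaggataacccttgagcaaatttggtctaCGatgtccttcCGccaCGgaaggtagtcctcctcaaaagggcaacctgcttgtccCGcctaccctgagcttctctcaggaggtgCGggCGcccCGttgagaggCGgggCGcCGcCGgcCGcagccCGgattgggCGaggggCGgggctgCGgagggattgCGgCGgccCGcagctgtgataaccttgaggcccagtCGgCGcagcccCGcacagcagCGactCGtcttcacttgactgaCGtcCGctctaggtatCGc

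The Slc2a2 window held 2 CpG dinucleotides and the Pklr windows 3 and 8, against 18 in Slc2a1 and 27 in the first Pkm window. As observed over expected CpG, these were 0.121 for Slc2a2, 0.158 and 0.344 for Pklr, 0.605 for Slc2a1 and 0.852 for Pkm. Among all 32851 promoter windows of the RefSeq table, the Slc2a2 value lay at the 16.5 percentile, the Pklr values at the 22.2 and 46.4 percentiles, Slc2a1 at the 64.6 percentile and Pkm at the 83.4 percentile. The Hk2 window held 25 CpG, a second Pkm window 23, Hk3 7, and the Hk1 windows 1 and 20. As observed over expected CpG, these were 0.757 for Hk2, 1.03 for the second Pkm window, 0.407 for Hk3, and 0.0507 and 0.665 for Hk1. The first Hk1 window, at the 6.07 percentile, was the lowest of all windows of these genes, and the second lay at the 68.4 percentile.

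The 4 short motifs given here were searched on both strands and do not contain one another. The GC box GGGCGG was found in the Slc2a1, Hk2 and first Pkm windows and in 35.7% of all windows, and not in those of Slc2a2 or Pklr. A TATA box, TATAAA, stood at position -31 from the second Pklr start, with positions counted from 1 at the start and no position 0, and another at position 29 in the Slc2a1 window. It occurs in 13.6% of all windows. CCAAT was found in windows of Slc2a2, Pklr, Slc2a1, Hk2 and Pkm and in 37.4% of all windows. The E box CACGTG (7.15% of all windows) was in none of the 10. These letters are descriptions of the windows, and the table does not say over which part of a gene reads were counted.

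Organ differences were tested with limma across all 26944 genes with a count, each organ against the mean of the other 3 over both preservations, with Benjamini-Hochberg adjustment over all genes and 0.05 as the threshold. Heart and liver each separated 6 of the 9 genes, where 16.7% and 20.9% of all genes tested were called. Heart had 4 higher and 2 lower, against 9.42% and 7.31% of all genes, and liver 2 higher and 4 lower, against 11.2% and 9.73%. Brain separated 3 genes, 2 higher and 1 lower, where 22.4% of all genes were called, 8.73% higher and 13.6% lower. Kidney separated none, where 5.22% of all genes were called, and none had an unadjusted p under 0.05 or was called by limma with precision weights (voom).

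The median difference of the 9 genes was -0.62 for liver, -0.24 for heart, -0.19 for brain and -0.02 for kidney, against -0.06, -0.04, 0.04 and -0.02 over all genes. Each fit has 3 residual degrees of freedom of its own and borrows 30.6 from the other genes, so the errors printed rest largely on the spread shared across genes. The sources used here do not say whether a column is 1 sample or a merge, and p-values measure only the spread among these 8 libraries.

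**Figure D1:**
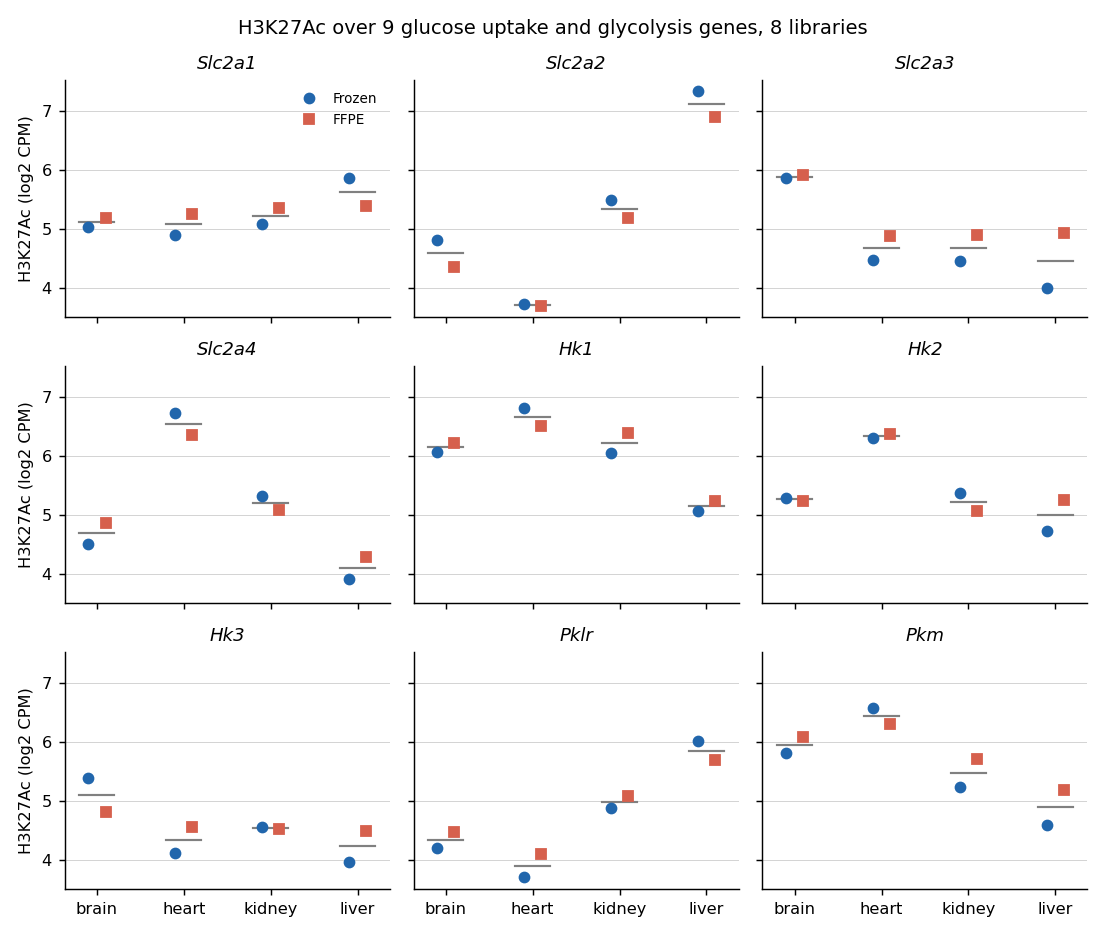
H3K27Ac of the 9 genes in each library, in log2 CPM, by organ, with Frozen and FFPE libraries marked separately. Slc2a2 spans the widest range, 3.69 to 7.35, and Slc2a1 the narrowest, from 4.90 to 5.86.

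Slc2a2 encodes GLUT2, the low-affinity, bidirectional glucose transporter of hepatocytes, pancreatic beta cells and the basolateral side of kidney proximal tubule and intestine (Entrez 20526, chr3:28697903-28728361, build GRCm38). Its levels were 7.35 (Frozen) and 6.90 (FFPE) in liver, 5.49 and 5.18 in kidney, 4.81 and 4.36 in brain, and 3.73 and 3.69 in heart. Liver stood above all other libraries and heart below all of them, and the organs kept the order liver, kidney, brain, heart in both preservations.

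Against the other organs Slc2a2 was higher in liver by 2.58 ± 0.22 (log2 difference ± SE; 6-fold, limma adjusted p = 8.19e-11) and lower in heart, at -1.97 ± 0.22 (adjusted p = 7.53e-08). In pairs of neighbours, liver exceeded kidney (kidney minus liver -1.79, adjusted p = 7.8e-06) and brain exceeded heart (0.87, adjusted p = 0.0183), while brain and kidney did not separate (-0.75, adjusted p = 0.0680). The brain difference of -0.81 ± 0.22 passed (adjusted p = 0.00660) but not with total count scaling (-0.58, adjusted p = 0.106), nor without the brain Frozen library (-0.90, adjusted p = 0.0542) or the brain FFPE library (-0.72, adjusted p = 0.103). The beta cell list, Ins1, Ins2, Iapp and Pdx1, summed to 8.12 to 19.7 CPM in all libraries, with none of its 4 genes called in any organ.

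Slc2a4 encodes GLUT4, the transporter that insulin moves to the surface of heart, skeletal muscle and fat cells (Entrez 20528, chr11:69942286-69948216). In heart its levels were 6.74 (Frozen) and 6.36 (FFPE), in kidney 5.33 and 5.09, in brain 4.51 and 4.86, and in liver 3.92 and 4.29. Both heart libraries were above and both liver libraries below all others, and the order heart, kidney, brain, liver was that of both preservations.

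For Slc2a4 the heart difference was 1.89 ± 0.23 (3.69-fold, limma adjusted p = 2.93e-07) and the liver difference -1.38 ± 0.23 (adjusted p = 2.11e-05). Heart exceeded kidney by 1.34 (adjusted p = 0.00118) and kidney exceeded liver by 1.1 (adjusted p = 0.00583), while brain separated neither from kidney (-0.52, adjusted p = 0.291) nor from liver (0.58, adjusted p = 0.129). Both calls were made under all 14 alternatives. The brain difference of -0.60 ± 0.23 missed the threshold (adjusted p = 0.0543) and passed under 6 of 14 alternatives, among them those without heart FFPE (-0.69, adjusted p = 0.0399) or liver Frozen (-0.68, adjusted p = 0.0281). Fat cells also use GLUT4, and the adipocyte list summed to 68.3 to 76.1 CPM in heart against 69.2 to 116 in the other organs. Of its 5 genes, none was called higher in heart and 1 was lower, where 9.42% and 7.31% of all genes were called. In liver 1 was higher and in brain 1 lower, against 11.2% and 13.6% of all genes. Plin1, a lipid droplet protein, was highest in heart without a call, at 5.06 and 4.76 (log2 CPM, Frozen and FFPE), and Cidec in liver, at 6.13 and 5.68. Their part in the Slc2a4 difference was not tested.

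Slc2a3 encodes GLUT3, the high-affinity transporter of neurons (Entrez 20527, chr6:122727809-122802363). Brain gave 5.87 (Frozen) and 5.91 (FFPE), heart 4.46 and 4.88, kidney 4.45 and 4.90, and liver 4.00 and 4.92. The brain libraries lay above the other 6, and among those the FFPE library of each organ was the higher one.

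Brain exceeded the other organs by 1.28 ± 0.23 for Slc2a3 (2.44-fold, limma adjusted p = 9.87e-05), a call made under all 14 alternatives. Heart, kidney and liver did not separate from one another, with pair differences of -0.01 to 0.22 and adjusted p of 0.733 to 0.992. The liver difference of -0.62 ± 0.23 missed the threshold (adjusted p = 0.0581) and passed under 5 of 14 alternatives, among them those with quantile normalization (adjusted p = 0.0434) and without brain FFPE (-0.71, adjusted p = 0.0324) or liver FFPE (-0.93, adjusted p = 0.0318). All 8 neuron markers were called higher in brain, as Slc2a3 was, where 8.73% of all genes were. Their part in the Slc2a3 difference was not tested.

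Slc2a1 encodes GLUT1, the basal transporter of many cell types, of red cells and of the blood-brain barrier endothelium (Entrez 20525, chr4:119108745-119137330). Its levels were 5.04 and 5.19 in brain (Frozen and FFPE), 4.90 and 5.26 in heart, 5.08 and 5.35 in kidney, and 5.86 and 5.40 in liver. No organ was called, although both liver libraries lay above the other 6.

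The liver difference of Slc2a1 was 0.49 ± 0.22 (95% interval 0.04 to 0.95, limma adjusted p = 0.123), and without the liver FFPE library it was 0.86 (adjusted p = 0.0365). In brain the difference was -0.19, with an interval from -0.65 to 0.26. The endothelial list, whose cells carry GLUT1 in the brain, summed to 183 to 184 CPM in brain against 252 to 744 in the other organs. Organ accounted for 63.5% of the sum of squares of Slc2a1 and the residual for 34.4%, whereas for Slc2a2 organ accounted for 98.0%.

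**Figure D2:**
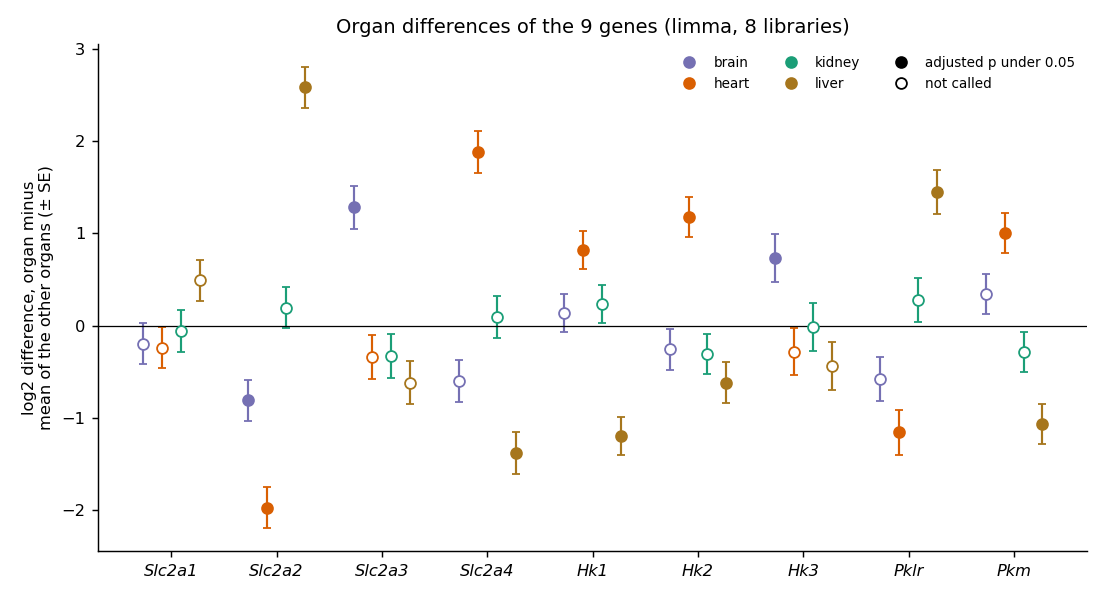
Log2 difference in H3K27Ac of each gene in each organ against the mean of the other 3 organs, over both preservations, with limma standard errors and with filled points for calls at adjusted p under 0.05. Liver holds the largest difference, Slc2a2 at 2.58, and kidney holds no call.

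Hk1 encodes hexokinase 1, the mitochondria-bound enzyme of brain and many other tissues (Entrez 15275, chr10:62268855-62379920). Heart gave 6.82 (Frozen) and 6.51 (FFPE), brain 6.08 and 6.23, kidney 6.05 and 6.39, and liver 5.06 and 5.24. Liver was below all other libraries and heart above, the latter by a narrow margin between heart FFPE and kidney FFPE.

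Hk1 was lower in liver by -1.20 ± 0.21 (limma adjusted p = 3.90e-05), and liver was below brain, heart and kidney in each pair, with differences of 1.0 to 1.51 and adjusted p of 2.51e-05 to 0.00309. Its heart difference of 0.82 ± 0.21 (adjusted p = 0.00449) was lost without the heart Frozen library (0.56, adjusted p = 0.444) and with total count scaling (0.50, adjusted p = 0.119), a scaling that shifted the median heart difference of all genes to -0.37. Brain, heart and kidney did not separate in pairs, with adjusted p of 0.149 to 0.931.

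Hk2 encodes hexokinase 2, the insulin-responsive enzyme of muscle, heart and fat (Entrez 15277, chr6:82725025-82774454). The heart libraries gave 6.31 (Frozen) and 6.38 (FFPE), brain 5.29 and 5.23, kidney 5.38 and 5.07, and liver 4.73 and 5.25. Heart stood apart, and the other 6 libraries overlapped.

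The heart difference of Hk2 was 1.18 ± 0.22 (2.27-fold, limma adjusted p = 1.69e-04), and it was called under all 14 alternatives. Liver was lower by -0.62 ± 0.22 (adjusted p = 0.0405), but without liver Frozen it was -0.31 (adjusted p = 0.668). The call was also lost without brain Frozen (-0.59), heart Frozen (-0.62), heart FFPE (-0.61) or kidney Frozen (-0.54), with adjusted p of 0.056 to 0.144, and with a prior variance that ignores the mean level (adjusted p = 0.160). Brain, kidney and liver did not separate in pairs, with adjusted p of 0.503 to 0.967.

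Hk3 encodes hexokinase 3, the isoform of leukocytes and other myeloid cells (Entrez 212032, chr13:55005985-55021475). Brain gave 5.40 (Frozen) and 4.81 (FFPE), heart 4.12 and 4.56, kidney 4.56 and 4.52, and liver 3.97 and 4.49. Brain was above the rest, chiefly in its Frozen library, which had 243 counts against 134 in brain FFPE.

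The brain difference of Hk3 was 0.73 ± 0.26 (1.66-fold, limma adjusted p = 0.0374), and without the brain Frozen library it was 0.29 (adjusted p = 0.790). The call was also lost without heart Frozen (0.65), kidney Frozen (0.76), kidney FFPE (0.71) or liver Frozen (0.63), with adjusted p of 0.0595 to 0.0979, and with a prior variance that ignores the mean level (adjusted p = 0.142). In pairs, brain and liver alone separated (0.88, adjusted p = 0.0376). The macrophage and neutrophil list summed to 143 CPM in both brain libraries and 123 to 158 in the others, with none of its 8 genes called in brain. Hk3 overlaps the neuronal receptor gene Unc5a by 34 bases, and Unc5a was itself higher in brain by 1.29 ± 0.28 (adjusted p = 7.05e-04), so reads in the shared part cannot be assigned to either gene.

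Pklr encodes the pyruvate kinase of liver and red cells (Entrez 18770, chr3:89136122-89146815). Liver gave 6.02 (Frozen) and 5.69 (FFPE), kidney 4.87 and 5.08, brain 4.21 and 4.47, and heart 3.71 and 4.09. The organs kept the order liver, kidney, brain, heart in both preservations, with liver above and heart below all other libraries.

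Liver exceeded the other organs by 1.45 ± 0.24 for Pklr (2.74-fold, limma adjusted p = 1.85e-05), a call made under all 14 alternatives. Heart was lower, at -1.16 ± 0.24 (adjusted p = 6.24e-04), and was not called without the heart Frozen library (-0.99, adjusted p = 0.106). The brain difference of -0.57 ± 0.24 did not pass (adjusted p = 0.0817), but did under 3 of 14 alternatives, among them that without liver FFPE (-0.68, adjusted p = 0.0359). Liver exceeded kidney (kidney minus liver -0.88, adjusted p = 0.0444), while brain separated neither from kidney (-0.64, adjusted p = 0.189) nor from heart (0.44, adjusted p = 0.30).

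Pklr is transcribed from an upstream start in red cell precursors and a downstream start in liver, which a count per gene does not separate. The 6 measured of 7 erythroid markers summed to 106 to 153 CPM in liver against 55.5 to 79.8 elsewhere. Of these 6, 2 were called higher in liver and none lower, where 11.2% and 9.73% of all genes were called. Their part in the Pklr difference was not tested. Alas2, the erythroid heme synthesis enzyme, was at 5.07 and 4.87 in liver (Frozen and FFPE) and between 2.02 and 3.27 in the other libraries. Klf1, the erythroid transcription factor, was at 6.71 and 5.85 in liver and between 4.97 and 5.88 elsewhere. Pklr also overlaps the channel gene Hcn3 by 41 bases, and Hcn3 was higher in liver by 0.86 ± 0.26 (limma adjusted p = 0.0133).

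Pkm encodes the pyruvate kinase of most other tissues, spliced to a constitutively active form in muscle and brain and to a regulated form elsewhere (Entrez 18746, chr9:59656576-59679372). Heart gave 6.58 (Frozen) and 6.31 (FFPE), brain 5.81 and 6.09, kidney 5.24 and 5.72, and liver 4.59 and 5.19. The order heart, brain, kidney, liver was that of both preservations, with heart above and liver below all other libraries, and a count per gene does not separate the spliced forms.

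Pkm was higher in heart by 1.01 ± 0.22 (2.01-fold, limma adjusted p = 9.39e-04) and lower in liver, at -1.07 ± 0.22 (adjusted p = 3.13e-04). Without heart Frozen the heart difference was 0.65 (adjusted p = 0.348), and without liver Frozen the liver difference was -0.85 (adjusted p = 0.0617). The brain difference of 0.34 did not pass (adjusted p = 0.269), but did under 2 of 14 alternatives, with quantile normalization (0.54, adjusted p = 0.0272) and with the same median and spread in all libraries (0.60, adjusted p = 0.0117). Neighbouring organs did not separate, with adjusted p of 0.182 for brain against heart, 0.329 for brain against kidney and 0.166 for kidney against liver. Over all 54 combinations of a gene and a pair of organs, 26 passed, where 16.1% of all gene and pair combinations were called.

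Isoforms of 1 step were then set against each other within each library, which cancels library scaling. The counted length of each gene is unknown, so the difference of 2 genes is compared between organs and its sign is not read. The 4 pairs and their organs were chosen with the levels of these genes known, and the libraries come from only 4 organs, so the differences are descriptions and carry no test.

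Pklr minus Pkm was 1.43 and 0.51 in liver (Frozen and FFPE), -0.37 and -0.64 in kidney, -1.61 and -1.62 in brain, and -2.88 and -2.22 in heart. Liver lay above the other 6 libraries, by 2.52 on average. Kidney came next, and heart was lowest in both preservations.

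Slc2a2 minus Slc2a1 was 1.49 and 1.51 in liver, 0.42 and -0.18 in kidney, -0.23 and -0.83 in brain, and -1.17 and -1.57 in heart. The liver mean was 2.09 above that of the other organs. Slc2a4 minus Slc2a1 was 1.83 and 1.11 in heart, 0.25 and -0.26 in kidney, -0.53 and -0.33 in brain, and -1.95 and -1.10 in liver. The heart mean was 2.12 above that of the other organs.

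Hk2 minus Hk1 was -0.52 and -0.13 in heart, -0.33 and 0.02 in liver, -0.78 and -1.0 in brain, and -0.68 and -1.31 in kidney. Heart and liver libraries overlapped, and the heart mean was 0.36 above that of the other organs. Both hexokinase genes were called higher in heart, so their difference there was small beside those of the transporter and pyruvate kinase pairs.

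**Figure D3:**
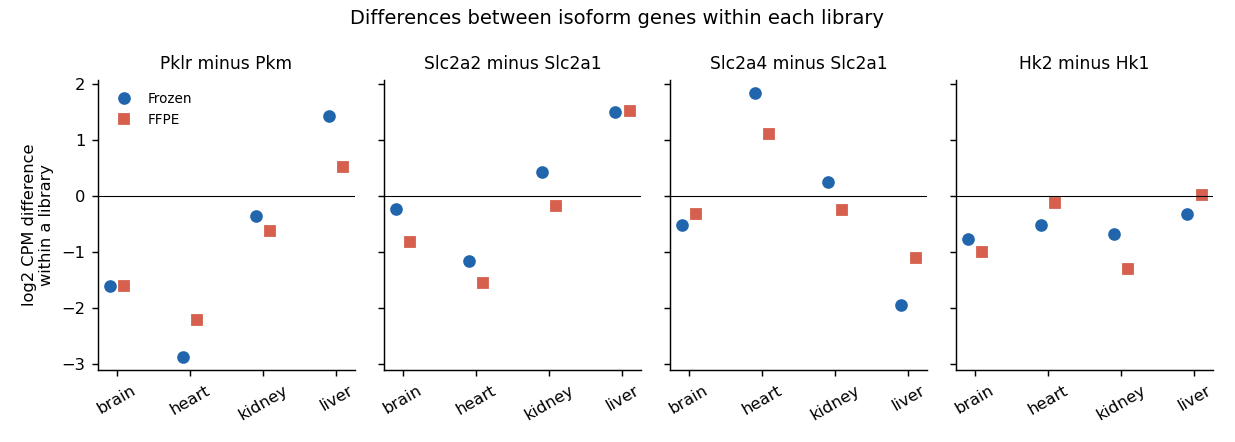
Difference in log2 CPM between 2 isoform genes within each library, by organ, for the 4 pairs. Pklr minus Pkm is 0.51 or more in liver and -0.37 or less elsewhere, and Hk2 minus Hk1 overlaps between heart and liver.

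Across the 8 libraries, Slc2a2 and Pklr had a Pearson r of 0.96, Slc2a4 and Hk2 of 0.93 and Slc2a3 and Hk3 of 0.88, while Slc2a2 and Pkm had -0.96 and Pklr and Pkm -0.93. These are descriptions over 8 libraries in 4 organs, which all genes share, and they carry no test.

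Among 13471 genes at or above the median level, those most like Slc2a2 in pattern included Cyp2d9 (r = 0.987) and Aldh8a1. For Slc2a3 they were Eno2, the neuronal enolase (r = 0.995), Map2, a dendritic microtubule protein, and Pou3f2, a neural transcription factor. For Slc2a4 they were Perm1, a muscle regulator of mitochondrial genes (r = 0.992), the glycerol channel gene Aqp7 and the apelin receptor gene Aplnr. Hk2 was most like Kcnj5 (r = 0.989), Actn2, a sarcomere protein, and Lrrc8c.

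Pklr was most like Mpzl2 (r = 0.992), Afm, a plasma protein of the albumin family, and Acox2, a peroxisomal enzyme of bile acid synthesis. Pkm was most like Pck2 (r = 0.988), 2700081O15Rik and Sec14l5, Hk3 most like Bend4 (r = 0.987), Robo2 and Dnah1, and Slc2a1 most like Ccz1 (r = 0.979), Dennd2d and B130006D01Rik. Hk1 was most like Usp54 (r = 0.978), a gene without a symbol in the table, and Tspan3.

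The nearest tested genes on either side shared the organ pattern at some loci and not at others. Ybx2, a gonadal RNA-binding protein gene 682 bases from Slc2a4, was higher in heart by 1.34 ± 0.27 (limma adjusted p = 4.56e-04) and lower in liver by -1.64 ± 0.27 (adjusted p = 1.77e-05), as Slc2a4 was. Ybx2 was also higher in kidney by 0.88 (adjusted p = 0.0492). Cldn7, on the other side of Slc2a4, was higher in kidney by 1.59 ± 0.27 (limma adjusted p = 1.19e-04). It was not called in heart (-0.29), liver (-0.65) or brain (-0.65). Hk1os, annotated on the opposite strand within Hk1, was higher in heart by 1.21 ± 0.29 (adjusted p = 0.00327) and lower in liver by -1.40 ± 0.29 (adjusted p = 4.78e-04). Fdps, an enzyme gene of isoprenoid synthesis beside Pklr, was higher in liver by 0.93 ± 0.23 (adjusted p = 0.0034) and lower in heart by -0.66 ± 0.23 (adjusted p = 0.0484), as Pklr was. Immunoprecipitated DNA carries no strand, so the reads of Hk1 and Hk1os cannot be told apart where they overlap.

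Gramd2, 461 bases from Pkm, was higher in kidney by 1.64 ± 0.32 (limma adjusted p = 8.51e-04), where Pkm was not called, and lower in liver by -1.13 ± 0.32 (adjusted p = 0.00929), where Pkm was lower too, and Parp6 on its other side was called in no organ. Neither neighbour of Slc2a2 followed it, since Eif5a2 was called in no organ and Tnik was higher in brain by 0.72 (adjusted p = 0.0090). The neighbours of Slc2a3, Nanog and Foxj2, and of Slc2a1, Lao1 and Zfp691, were called in no organ. Pole4, beside Hk2, was higher in liver by 1.83 ± 0.22, where Hk2 was lower.

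**Figure D4:**
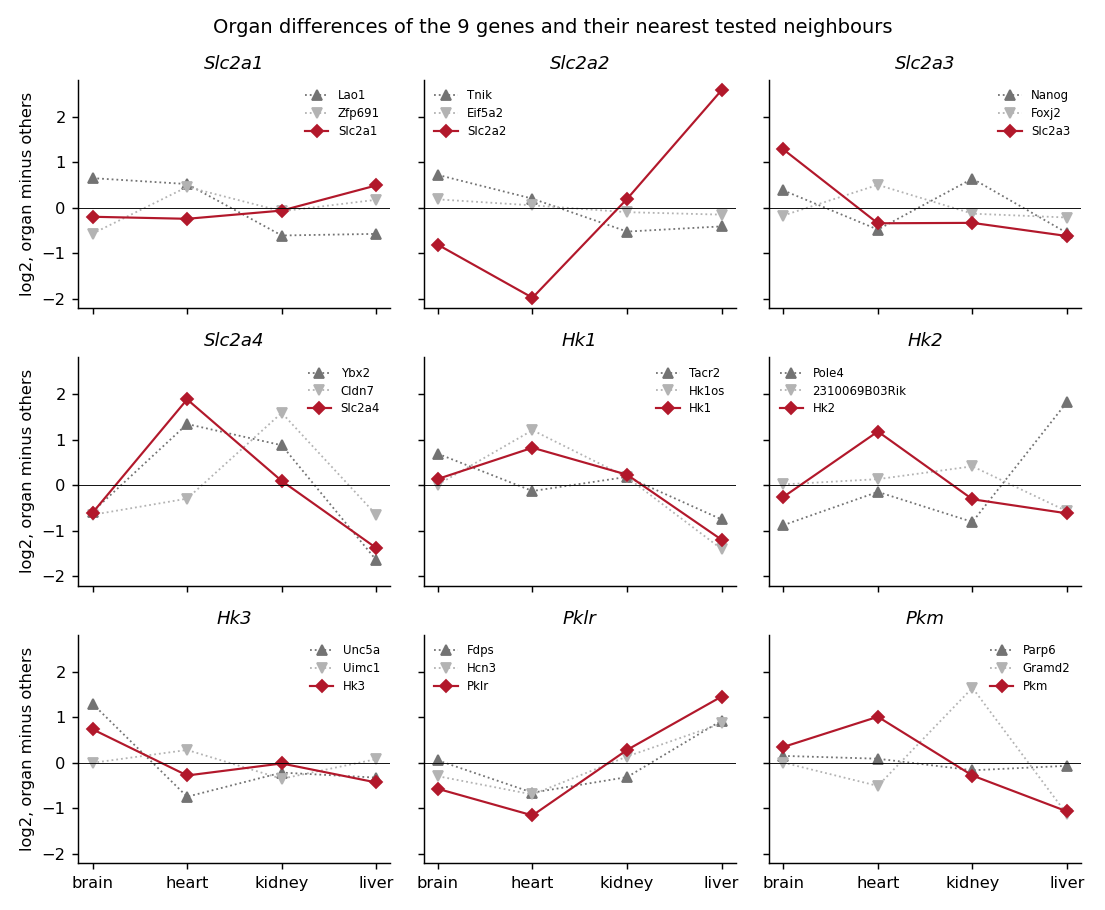
Log2 difference in H3K27Ac in each organ against the other 3 for each gene (red) and its nearest tested gene on either side (grey), with lines that only join the 4 organs of a gene and no error bars. Ybx2 follows Slc2a4 in heart and liver, at 1.34 and -1.64, while the neighbours of Slc2a2 stay between -0.52 and 0.72.

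The shares of all genes called in each organ, for the lists that follow, are 8.73% higher and 13.6% lower in brain, 9.42% and 7.31% in heart, 11.2% and 9.73% in liver, and 5.22% in either direction in kidney. Of the 8 other facilitative transporters, 2 were higher in brain, 2 lower in heart, 1 higher in kidney and 1 lower in liver. Slc2a13, the proton-myo-inositol cotransporter, was lower in heart by -1.11 (limma adjusted p = 2.93e-04), Slc2a5, the fructose transporter, was higher in kidney by 0.97 (adjusted p = 0.00672), and Slc2a6 and Slc2a12 were higher in brain by 0.86 and 0.78. Of 4 sodium-coupled transporters, 2 were higher in kidney, namely Slc5a2, the SGLT2 transporter that recovers filtered glucose in the proximal tubule, by 1.43 ± 0.29 (adjusted p = 0.00132) and Slc5a10 by 0.93 (adjusted p = 0.0276). Slc5a9 was lower in liver by -0.96, and 1 of the 4 was lower in heart.

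Among 4 other genes of glucose phosphorylation, Gckr, a regulator of glucose phosphorylation in hepatocytes, was higher in liver by 1.81 ± 0.27 (limma adjusted p = 3.59e-06), and Hkdc1, a hexokinase-like gene, was lower there by -0.74. Of 18 other glycolytic enzymes, heart had 5 higher and 2 lower, liver 1 higher and 5 lower, brain 3 higher and 3 lower, and kidney none. The count lower in brain is near the 13.6% of all genes. The muscle isoforms Pfkm and Eno3 were higher in heart by 1.46 and 1.41. Pgam2, the muscle phosphoglycerate mutase, was lower in liver by -1.90.

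Of 15 regulators known for these genes, 7 higher and 1 lower were seen in liver, 4 higher and 3 lower in heart, 1 higher and 7 lower in brain, and 3 higher in kidney, beside the same all-gene shares of 11.2% and 9.73% in liver and 9.42% and 7.31% in heart. Foxa2 and Hnf4a, transcription factors of hepatocytes, were higher in liver by 3.30 and 2.52 (limma adjusted p = 4.47e-11 and 6.92e-11). Txnip, a glucose-induced protein that draws GLUT1 and GLUT4 from the cell surface, was lower in brain by -2.33 (adjusted p = 4.77e-09). No gene of these lists was called between FFPE and Frozen.

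None of the 9 genes was called between FFPE and Frozen over the 4 organs, where 3.91% of all genes tested were called, and none was called by limma with precision weights. Slc2a3 was higher in FFPE in every organ, by 0.46 ± 0.20 on average, and did not pass (limma adjusted p = 0.246). It was the only one of the 9 whose unadjusted p was under 0.05. Slc2a2 was lower in FFPE in all 4 organs, at -0.31 ± 0.19 (95% interval -0.70 to 0.07, adjusted p = 0.440). The intervals of the others reach from -0.38 to 0.65, so differences of that size are not excluded for them.

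Within 1 organ there is 1 library per preservation, so a ratio has a counting interval and no replicate error. Of the 36 ratios of FFPE to Frozen CPM, 10 had 95% Clopper-Pearson intervals above 1, 10 below 1 and 16 held 1. Liver had 4 above and 3 below, kidney 3 and 2, heart 2 and 3, and brain 1 and 2. The same share was not computed over all genes, so these counts are not read as a result about these genes. The ratio furthest from 1 was that of Slc2a3 in liver, 1.90 (1.45 to 2.51), from 90 counts in Frozen and 138 in FFPE. Hk3 in brain had 0.662 (0.532 to 0.821), and Slc2a2 had 0.731 in brain, 0.802 in kidney and 0.732 in liver, with intervals below 1, and 0.971 (0.661 to 1.42) in heart.

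**Figure D5:**
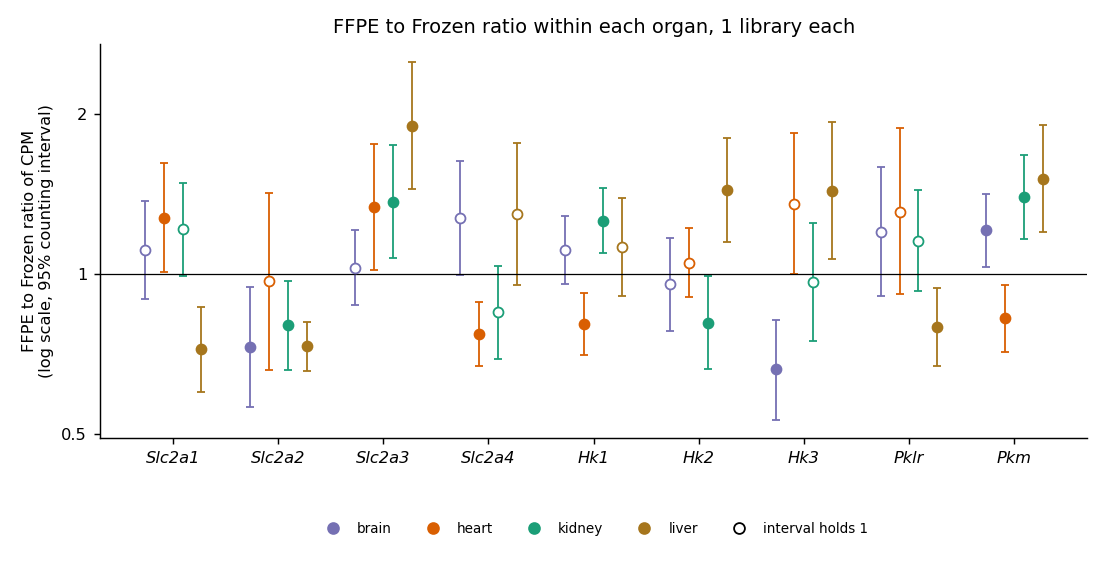
Ratio of FFPE to Frozen CPM for each gene within each organ on a log axis, with 95% Clopper-Pearson intervals that cover counting error only. Slc2a3 in liver is highest at 1.90 and Hk3 in brain lowest at 0.662, and 16 of 36 intervals hold 1.

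The range over organs was wider in Frozen than in FFPE libraries for all 9 genes, as it was for 69.9% of all genes. For Slc2a1 it was 0.96 in Frozen and 0.21 in FFPE, for Hk3 1.43 and 0.32, for Pkm 1.99 and 1.12, and for Slc2a2 3.62 and 3.21. The spread of all genes was also wider in some Frozen libraries, with an SD of log2 CPM of 1.96 to 2.40 against 1.94 to 2.09 in FFPE. With all libraries set to the same median and spread, an alternative chosen after the data had been seen, 7 of the 9 genes and 55.0% of all genes had the wider range in Frozen.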

How the data were processed

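H3K27Ac libraries of 4 mouse organs, Frozen and FFPE, were analysed from 1 deposited table; the labels describe 16 H3K27Ac samples, 2 per group, and 8 inputs, and no input column was analysed here. The submitters' processing notes name mm10, Bowtie2, featureCounts and limma; versions and the counted part of a gene are not in the sources used here. The authors' deposited values are log2 CPM: 100% of them returned whole counts within 0.001, as log2 of the count plus 0.5 over a scaled library size, with scaling factors of 0.749 to 1.22. Library kits and ChIP runs named in the labels cannot be matched to columns.

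Genes at 0 in all libraries (235) were removed. limma 3.58.1 in R 4.3.3 (lmFit, eBayes with trend) fitted organ and preservation to the deposited log2 values, two-sided; the procedure was tested on simulated data. Positions are from RefSeq, which matched 25275 identifiers. The alternatives were 6 of scaling, filter, prior and weights, and leaving out each of the 8 libraries. All 9 genes are named; of other lists, up to 4 called genes with the largest organ difference; of neighbours, the nearest tested gene on either side; of like genes, the 3 with the highest r. Genes given as levels beside these (Alas2, Klf1, Plin1, Cidec) were chosen after their values were seen. The genes and lists were chosen with earlier results of these data known. An exact permutation test was also computed for the isoform pairs and is not used, since the pairs were chosen with their levels known and the libraries of 1 organ are not independent. Some genes that these rules name are not reported here. Count intervals cover counting error only.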

Additional observations from a re-analysis of the deposited data

Results flagged for a closer look

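For 5 genes, Slc2a1, Hk1, Hk2, Hk3 and Pkm, FFPE to Frozen ratios ran in opposite directions in different organs, each with a 95% counting interval that leaves out 1. With 1 library per organ and preservation, the difference between organs was not tested, and the intervals cover counting error only. How many of all genes meet the same rule was not counted, so the count of 5 is not read as particular to these genes. Slc2a1 had a ratio of 1.28 in heart and 0.723 in liver. Hk1 had 1.26 in kidney and 0.806 in heart. For Hk2 the ratio was 1.44 in liver and 0.811 in kidney, and for Hk3 it was 1.44 in liver and 0.662 in brain. Pkm had 1.21 in brain, 1.39 in kidney and 1.51 in liver, and 0.827 in heart.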

How the results depend on the processing

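No paired analysis was possible because the columns carry no replicate numbers. Over 14 alternatives no organ difference that passed changed direction, and 8 of the 15 calls passed under every one of them: Slc2a3 in brain, Slc2a2, Slc2a4 and Hk2 in heart, and Slc2a2, Slc2a4, Hk1 and Pklr in liver. The other 7 were lost under at least 1. Brain called 6 of the 9 genes with quantile normalization and 6 with the same median and spread in all libraries (25.9% and 27% of all genes), 1 with a prior variance without trend (8.99%), and 1 to 4 when a library was left out. Heart called 3 to 6 when a library was left out, 3 of them without heart Frozen, where 3.24% of all genes were called in place of 16.7%. Liver called 4 to 8, and without liver Frozen 8.17% of all genes were called in place of 20.9%. Gene and organ pair calls fell from 26 to 12 without the trend and were 18 to 27 when a library was left out. The prior without trend kept 10 of the 15 calls, losing Slc2a2 and Hk3 in brain, Hk1 and Pkm in heart and Hk2 in liver, total count scaling 13, and leaving out heart Frozen 10. That scaling moved the median difference of all genes to 0.27 for brain, -0.37 for heart, 0.12 for kidney, -0.11 for liver and -0.14 for FFPE against Frozen. Kidney, and FFPE against Frozen, called none of the 9 under any alternative. With a library left out, the isoform pair differences were 2.06 to 2.98 for Pklr minus Pkm, 1.90 to 2.29 for Slc2a2 minus Slc2a1 and 1.76 to 2.49 for Slc2a4 minus Slc2a1. The cause of these changes was not tested. The range over organs was wider in Frozen for 7 of the 9 genes with quantile normalization. Counts of 55 to 924 per gene and library limit ratios within an organ.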

Other observations

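Genes that set the fate of pyruvate and lactate were marked more in liver than elsewhere in 5 of 12 cases and less in 1, with 1 higher and 2 lower in heart, 2 lower in brain and none called in kidney. Over all genes tested, 11.2% were higher and 9.73% lower in liver, 9.42% and 7.31% in heart, and 13.6% lower in brain, so the brain count is near that share. Pdk4, a kinase that shuts pyruvate dehydrogenase in fasting, was lower in brain by -1.28 (limma adjusted p = 2.04e-05), and Mpc2, a subunit of the mitochondrial pyruvate carrier, was lower there by -1.12 (adjusted p = 4.83e-04). Slc16a7, the lactate and pyruvate transporter MCT2, was lower in heart by -1.21 (adjusted p = 0.00184), and Pdk3 was lower in liver by -1.19 (adjusted p = 0.0108). Of 4 genes for the enzymes that make and remove fructose 2,6-bisphosphate, Pfkfb1, the liver form, was higher in liver by 0.96 (adjusted p = 0.0354), and Pfkfb3 was lower in brain by -0.63 (adjusted p = 0.0224).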
